A study of Mus musculus with 90 samples.

Results

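The liver takes up and releases amino acids through carriers of the solute carrier (Slc) families, and 8 of these carriers are described here across diet, genotype, time of day and corticosterone. They are Slc38a2, Slc38a3, Slc38a4, Slc7a2, Slc16a10, Slc43a1, Slc3a2 and Slc25a47, a set chosen by symbol as amino acid transporters of the liver. The symbols were matched to Ensembl identifiers, and 8 of 8 were found among the 27654 genes of 4 tables of estimated counts. Each of the 8 passed the filter on low counts in every comparison.

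Bulk polyA RNA of mouse liver was sequenced in 90 libraries, all labelled C57BL/6J, with no age in the labels. The mice were male according to the study's methods. The questions were how caloric restriction (CR) changes liver transcripts over the day, and how far the glucocorticoid receptor (GR) of hepatocytes takes part. A time series sampled the liver at ZT0, ZT4, ZT8, ZT12, ZT16 and ZT20, where ZT (zeitgeber time) counts hours after lights on. It holds 36 libraries of mice under CR, with an end point of 40% fewer calories, and 42 of mice on the control diet, which was night-restricted feeding (NRF) without fewer calories.

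Both diets of the time series include 2 genotypes. Mice labelled GRfl/fl carry floxed GR alleles without Cre and are called WT, as in the library titles; mice labelled GRfl/fl x Alb-Cre lack the receptor where the albumin promoter drives Cre, and are called GRLKO. There were 3 libraries per genotype and time point, except that control-diet groups held 4 at ZT8 and ZT12 in both genotypes and 4 at ZT16 and ZT20 in WT. A separate diet experiment compared 3 CR with 3 control-diet libraries at ZT12, with WT as the genotype label for both. Its control libraries carry AL in their titles and night-restricted feeding as their treatment label. A separate corticosterone experiment compared 3 libraries of WT mice given corticosterone with 3 control libraries at ZT12. Those controls carry NR (night-restricted) in their titles and received vehicle, and both groups were fed at night only during the treatment, as the study's methods state. Total counts per library were 36442195 to 39492146 in the diet experiment, 13739631 to 16077943 in the corticosterone experiment, 14235473 to 20788575 in the CR time series and 10057544 to 17089004 in the control-diet time series.

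Amino acids cross the hepatocyte membrane by several transport systems that differ in substrate and in whether sodium drives them. System A carriers take up small neutral amino acids with sodium, system N carriers move glutamine, histidine and asparagine in either direction, and facilitated carriers let aromatic or large neutral amino acids follow their gradient. In fasting, the liver draws on circulating amino acids for glucose and urea synthesis, and glucocorticoids are long known to promote hepatic amino acid uptake.

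Slc38a2 encodes SNAT2, a system A carrier, Slc38a4 encodes SNAT4, a system A carrier enriched in liver, and Slc38a3 encodes the system N carrier SNAT3. Slc7a2 encodes CAT2, a carrier of arginine, lysine and ornithine. Slc16a10 encodes TAT1, a facilitated carrier of aromatic amino acids, and Slc43a1 encodes LAT3, a facilitated carrier of large neutral amino acids. Slc3a2 encodes the 4F2 heavy chain (CD98), which carries no substrate by itself and brings several light-chain transporters to the membrane. Slc25a47 encodes a mitochondrial carrier enriched in liver whose substrate is not settled.

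The gene targeted in GRLKO mice, Nr3c1, was measured first. Levels are given as counts scaled to library size (CPM) after TMM normalization, which was done within each table. Under CR, Nr3c1 ranged from 70.5 over a median of 94.0 to 113 CPM in the 18 WT libraries and from 21.6 over 25 to 32.2 CPM in the 18 GRLKO libraries. On the control diet it ranged from 72.8 over 86.9 to 117 CPM in 22 WT libraries and from 16.2 over 21.7 to 28.8 CPM in 20 GRLKO libraries. Every GRLKO library lay below every WT library of its diet, with log2 fold changes of -1.70 to -2.06 over the 12 genotype comparisons. Because whole liver was sequenced, reads left in GRLKO can stem from other liver cells or from parts of the transcript that the deletion spares. In bulk RNA, fewer cells of a type and less RNA per cell cannot be told apart.

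Among the libraries, 2 stand apart by markers of exocrine pancreas. The 10 pancreas markers summed to 1324.2 CPM in CR ZT12 WT replicate 3, with Amy2a5 the most abundant, and to 800.0 CPM in control-diet ZT16 WT replicate 2. The edgeR comparisons that hold these libraries, and the JTK_CYCLE and rhythm-difference tests, were also run without them; means, correlations and the other alternatives include them. These are 2 of 10 sums, among 280 of a marker list in a group, in which 1 library held over 2 times the CPM of every other library of its group, and over 100 CPM.

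Erythrocyte markers make up 5 of the 10. They summed to 3859.4 CPM in CR ZT0 GRLKO replicate 2 (next 590), 1245.3 in CR ZT0 WT replicate 2 (next 405), 789 in CR ZT16 WT replicate 1 (next 343), 1408.1 in control-diet ZT8 GRLKO replicate 3 (next 597) and 1533.9 in control-diet ZT16 WT replicate 2 (next 724), the second library with pancreas markers. Kupffer and myeloid markers summed to 337 CPM in CR ZT20 GRLKO replicate 1 (next 128), cholangiocyte markers to 152 in control-diet ZT20 GRLKO replicate 1 (next 63.1) and adipocyte markers to 104 in control-diet ZT12 GRLKO replicate 3 (next 22.3). The genotype comparison of its time and the rhythm tests were also run without each of these libraries.

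Under CR in the diet experiment, transcripts of 5 members rose and those of 1 fell at ZT12, the end of the light phase. The system A carrier Slc38a2 measured 169, 171 and 190 CPM in the control libraries and 273, 361 and 561 CPM under CR. Slc16a10, the aromatic amino acid carrier, measured 73.0, 86.9 and 76.6 CPM in controls and 175, 213 and 270 CPM under CR. For both genes each CR library lay above each control library, and the CR libraries were more widely spread. The log2 fold change was 1.17 (SE 0.24, adjusted p = 0.00696) for Slc38a2 and 1.47 (SE 0.16, adjusted p = 0.000638) for Slc16a10, in an edgeR test across all genes.

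The mitochondrial carrier Slc25a47 measured 319, 326 and 333 CPM in controls and 506, 513 and 689 CPM under CR, a log2 fold change of 0.80 (SE 0.13, adjusted p = 0.00254). The heavy chain Slc3a2 measured 17.4, 17.9 and 22.0 CPM in controls and 27.8, 37.0 and 35.2 CPM under CR, a log2 fold change of 0.80 (SE 0.14, adjusted p = 0.00329). For neither gene did the groups overlap. The system N carrier Slc38a3 went the other way, with 336, 399 and 418 CPM in controls and 292, 168 and 182 CPM under CR. Its groups did not overlap either, although CR replicate 1 lay close to the lowest control, and it fell by 0.85 on the log2 scale (SE 0.21, adjusted p = 0.0143).

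Slc38a4 measured 11.7, 21.9 and 48.1 CPM in controls and 46.3, 76.1 and 128 CPM under CR. The groups overlapped, since control replicate 3 lay above CR replicate 1, and the spread within each was wide. Its log2 fold change of 1.62 (SE 0.54) passed the test narrowly (adjusted p = 0.0434) and missed it in DESeq2 (adjusted p = 0.052). It also missed the threshold without control replicate 1 (adjusted p = 0.1), control replicate 2 (0.129), CR replicate 2 (0.0838) or CR replicate 3 (0.129).

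The cationic carrier Slc7a2 measured 883 to 1031.6 CPM in controls and 1023.1 to 1211.3 CPM under CR, and its log2 fold change of 0.21 did not pass (adjusted p = 0.103). Nor did that of the large neutral carrier Slc43a1. Slc43a1 measured 15.3, 17.9 and 16 CPM in controls and 16.6, 9.33 and 7.94 CPM under CR, so that CR replicate 1 lay among the controls. Its log2 fold change was -0.54 (adjusted p = 0.12) over all libraries and -0.92 (adjusted p = 0.00159) without CR replicate 1.

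In all, 6 of 8 members were called, beside 47.1% of the 13062 genes tested. Their median log2 fold change was 0.80, beside 0.0 for all genes tested. In the same libraries 4 of 7 hepatocyte markers rose (summed mean 91377.2 CPM in controls and 160588.3 under CR, Alb most abundant), as did 4 of 6 endothelial markers (139 and 204 CPM), 2 of 4 cholangiocyte and 2 of 6 stellate markers and 1 of 3 adipocyte markers. The summed stellate markers lay apart too (181 to 225 CPM in controls, 262 to 299 under CR), and the sums of adipocyte, lymphocyte and neutrophil markers lay lower under CR without overlap. Another 2 of the adipocyte markers fell, and so did 1 marker each of the stellate, Kupffer and myeloid, lymphocyte and erythrocyte lists. The part of these shifts in the members' results was not tested.

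The same contrast can be drawn from the WT libraries of the time series at ZT12, where each diet was a library batch of its own, so that diet and batch cannot be told apart. There 2 members passed, Slc38a2 and Slc16a10, beside 38.1% of the 11550 genes tested. Slc38a3 had a log2 fold change of -0.23 (adjusted p = 0.538) and Slc25a47 of 0.41 (adjusted p = 0.101). Slc38a4 and Slc3a2 had the opposite sign to the diet experiment, at -0.37 (adjusted p = 0.455) and -0.26 (adjusted p = 0.165). Without CR ZT12 WT replicate 3 the same 2 members passed, at 0.76 (adjusted p = 0.0243) for Slc38a2 and 0.84 (adjusted p = 0.0078) for Slc16a10, beside 27.8% of genes (3265 in place of 4398). Marker sums of these WT groups lay apart too. Hepatocyte sums were 83023.8 to 99455.6 CPM on the control diet and 169804.1 to 177234.5 under CR. Endothelial sums were 72.8 to 86.9 and 149 to 180 CPM, and stellate sums 86.5 to 129 and 223 to 277 CPM. Neutrophil sums were lower under CR, at most 0.0565 CPM beside at least 0.159. The part of these shifts was not tested.

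Corticosterone raised 3 members at ZT12: the system A carrier Slc38a2, the cationic carrier Slc7a2 and the mitochondrial carrier Slc25a47. Slc38a2 measured 60.4, 65.4 and 65.7 CPM in control libraries and 447, 521 and 371 CPM with corticosterone. Each treated library held several times the level of any control, and the controls lay close together. Its log2 fold change was 2.80 (SE 0.15, adjusted p = 0.000665), a 6.99-fold difference.

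Slc7a2 measured 355, 249 and 265 CPM in controls and 995, 1394.7 and 979 CPM with corticosterone, a log2 fold change of 1.95 (SE 0.20, adjusted p = 0.00307). Slc25a47 measured 225, 148 and 115 CPM in controls and 476, 589 and 549 CPM with corticosterone, a log2 fold change of 1.73 (SE 0.24, adjusted p = 0.00967). For both genes the groups lay apart in all 6 libraries. Without control replicate 2 the Slc25a47 value was 1.66 and missed the threshold (adjusted p = 0.0598).

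The other carriers did not pass over all 6 libraries. The aromatic carrier Slc16a10, which rose under CR, measured 99.4, 106 and 80.7 CPM in controls and 105, 104 and 96.1 CPM with corticosterone, and these ranges overlap. The log2 fold changes were 0.10 for Slc16a10, -0.05 for Slc3a2 and 0.28 for Slc38a4, with adjusted p of 0.659, 0.758 and 0.832.

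Treated replicate 2 decided 2 further members. Slc38a3 measured 172, 111 and 108 CPM in controls and 344, 144 and 380 CPM with corticosterone, and Slc43a1 measured 9.06, 8.33 and 8.13 CPM in controls and 3.79, 7.98 and 4.52 CPM with corticosterone. Treated replicate 2 lay among the controls for Slc38a3 and just below them for Slc43a1, apart from the other two treated libraries. Over all libraries the log2 fold changes were 1.15 (adjusted p = 0.0967) and -0.64 (adjusted p = 0.201). Without treated replicate 2 they were 1.46 (adjusted p = 0.0124) and -1.04 (adjusted p = 0.0202), and 5 members passed. The share of all genes called in that fit is not given here, so the count of 5 is not set against the other genes.

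The count of 3 of 8 members stands beside 8.11% of the 11523 genes tested. Of the marker lists, 2 of 7 hepatocyte and 2 of 8 Kupffer and myeloid markers rose (the latter summed to 97.6 CPM in controls and 139 with corticosterone), and 1 of 6 endothelial, 1 of 6 stellate and 1 of 4 cholangiocyte markers fell. The hepatocyte markers summed to 99033.9 CPM in controls and 97912.3 with corticosterone, with overlap. Without overlap, the sums of erythrocyte (632 to 785 CPM in controls, 301 to 558 treated), endothelial and lymphocyte markers were lower and those of Kupffer and myeloid and of neutrophil markers higher. The part of these shifts in the members' results was not tested. The diet and the corticosterone experiment used different control libraries, depths and tables, and the difference between their effects was not tested.

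**Figure D1:**
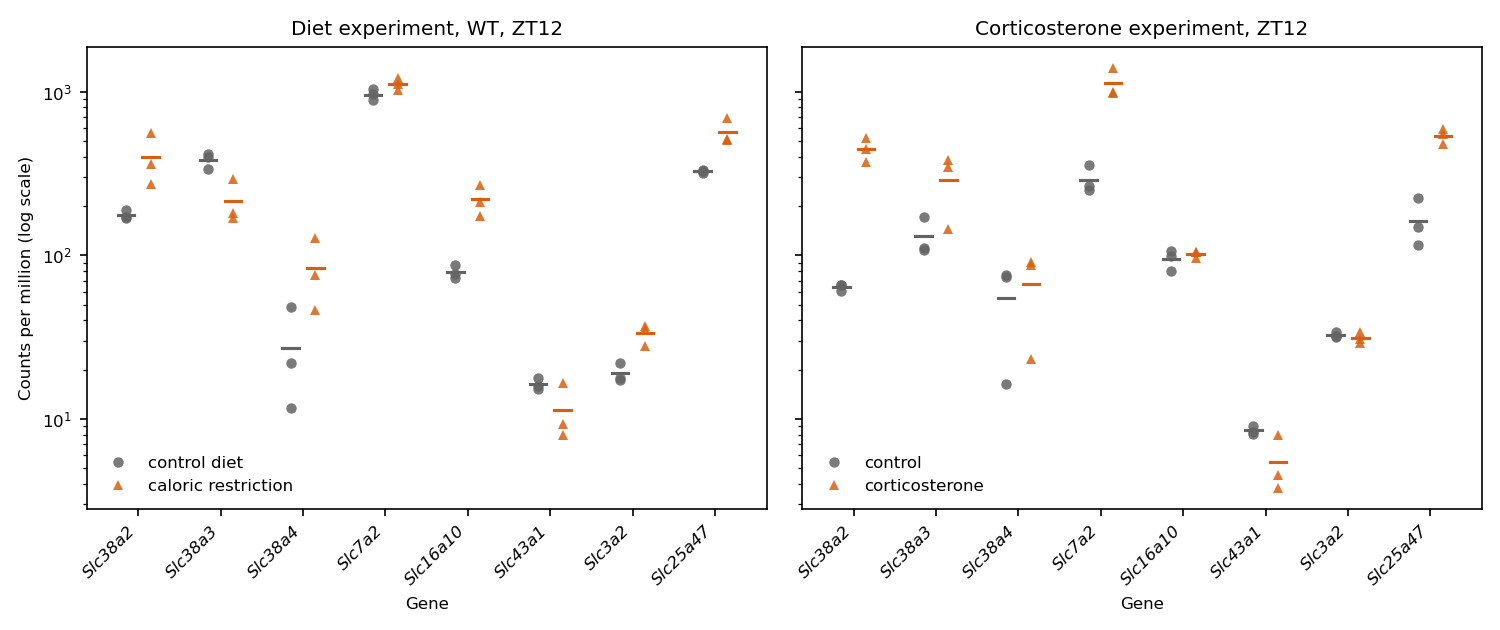
Level in CPM (log scale) of the 8 members in each library of the diet experiment (left) and the corticosterone experiment (right) at ZT12; points are libraries, short bars group means, n = 3 per group. Slc38a2 lies higher in each treated library on both sides, while Slc16a10 does so under caloric restriction and lies at 96.1 to 105 CPM with corticosterone, within the 80.7 to 106 CPM of the controls.

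Between genotypes under CR, the members called by edgeR were Slc43a1, Slc38a2 and Slc16a10, each lower in GRLKO, when the 2 groups of a time point were fitted by themselves. At ZT12, Slc43a1 measured 12.2, 16.7 and 17.5 CPM in WT and 2.31, 3.90 and 2.22 CPM in GRLKO. Slc38a2 measured 327, 366 and 296 CPM in WT and 175, 135 and 192 CPM in GRLKO. Both genes were lower in 3 of 3 GRLKO libraries than in any WT library. The log2 fold change was -2.46 (SE 0.26, adjusted p = 0.00148) for Slc43a1 and -0.99 (SE 0.15, adjusted p = 0.00624) for Slc38a2.

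These 2 of 8 members stand beside 15.3% of the 11759 genes tested at ZT12, the highest share of the genotype comparisons. Without WT replicate 3, the library with pancreas markers, 1032 genes were called in place of 1795. Both members were called without it too, at -2.37 (adjusted p = 0.00806) for Slc43a1 and -1.07 (adjusted p = 0.0147) for Slc38a2.

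Slc16a10 measured 216, 206 and 202 CPM in WT and 146, 138 and 186 CPM in GRLKO at ZT12. Its groups did not overlap, with GRLKO replicate 3 nearest to WT. The log2 fold change of -0.42 missed the threshold (adjusted p = 0.0597) and passed without GRLKO replicate 3 (-0.56, adjusted p = 0.0239) and in DESeq2 (-0.41, adjusted p = 0.0113). Slc38a3 was widely spread at this time, with 229, 370 and 431 CPM in WT and 599, 990 and 351 CPM in GRLKO, overlapping groups and a log2 fold change of 0.91 (SE 0.38, adjusted p = 0.153). Slc38a4, at 0.13 over all libraries, was called at 0.47 (adjusted p = 0.0326) without GRLKO replicate 2.

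Among the cell type markers at CR ZT12, 6 of 7 hepatocyte markers were lower in GRLKO (summed mean 173011 CPM in WT and 128440.8 in GRLKO, Alb most abundant). Of 8 Kupffer and myeloid markers, 4 were higher (68.3 and 149 CPM, Clec4f most abundant), as were 1 of 6 endothelial markers (164 and 211 CPM) and 1 of 5 erythrocyte markers, and 1 of 3 cholangiocyte markers was lower. Whether these shifts bear on the 2 members was not tested.

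At ZT8 under CR, 4 h earlier, 2 of 8 members were called, beside 2.55% of genes. Slc43a1 measured 14.4, 11 and 13.8 CPM in WT and 4.76, 4.57 and 5.79 CPM in GRLKO, and Slc16a10 measured 166, 158 and 149 CPM in WT and 95.6, 119 and 101 CPM in GRLKO. The genotypes did not overlap for either gene. The log2 fold change was -1.37 (SE 0.15, adjusted p = 0.00897) for Slc43a1 and -0.58 (SE 0.10, adjusted p = 0.0257) for Slc16a10.

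Of the hepatocyte markers, 1 of 7 was lower in GRLKO at ZT8 and 2 of 7 at ZT16 under CR, 1 of 5 erythrocyte and 1 of 3 adipocyte markers were higher at each of these times, and their part was not tested. Single libraries decided part of the ZT8 result. Slc43a1 missed the threshold without GRLKO replicate 1 (-1.33, adjusted p = 0.056). Slc16a10 missed it without WT replicate 1 or 3 (adjusted p = 0.0707 and 0.0614) or without GRLKO replicate 1 or 3 (0.117 and 0.131). Slc38a3 was called higher in GRLKO without WT replicate 1, at 0.53 (adjusted p = 0.0426). DESeq2 called 5 members at this time, beside 698 genes, 2.52% of all 27654 genes. edgeR called 308 genes of the 12070 past the filter, so the shares of these tools have unlike bases, here and at the other times. It added Slc38a2 at -0.79, Slc38a4 at 0.84 and Slc7a2 at 0.43, the latter pair higher in GRLKO.

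At ZT16, 4 h after lights off, 2 of 8 members were called under CR, beside 4.54% of genes. Slc38a2 measured 65.1, 70.4 and 68.5 CPM in WT and 47.6, 46.0 and 54.1 CPM in GRLKO, and Slc43a1 measured 13.7, 13.0 and 14.0 CPM in WT and 8.67, 9.82 and 8.14 CPM in GRLKO. Both genotype groups were tight and did not overlap. The log2 fold changes were -0.47 (SE 0.09) and -0.61 (SE 0.12), each with an adjusted p of 0.0288. Slc38a2 missed the threshold without any 1 library other than GRLKO replicate 3, and Slc43a1 without any 1 library other than GRLKO replicate 2, with adjusted p of 0.0666 to 0.101 over those fits. One of them leaves out WT replicate 1, which is high in erythrocyte markers (0.078 for Slc38a2 and 0.101 for Slc43a1). Slc3a2, at -0.48 (adjusted p = 0.0683), was called without GRLKO replicate 2 (-0.62, adjusted p = 0.0276). DESeq2 called 4 members, beside 3.32% of 27654 genes, adding Slc38a3 at 0.74 and Slc3a2 at -0.49.

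At ZT20, 1 of 8 members was called under CR, beside 1.47% of genes. Slc43a1 measured 11, 10.4 and 9.34 CPM in WT and 3.77, 5.67 and 4.98 CPM in GRLKO, without overlap. Its log2 fold change was -1.07 (SE 0.18, adjusted p = 0.0373), and it missed the threshold without any 1 library other than GRLKO replicate 1 (adjusted p = 0.0602 to 0.161). Slc25a47 measured 197, 190 and 264 CPM in WT and 139, 105 and 117 CPM in GRLKO, also without overlap, with a log2 fold change of -0.82 that missed the threshold (adjusted p = 0.0654). DESeq2 called 3 members, beside 2.48% of 27654 genes: Slc43a1, Slc25a47 and Slc38a2. Of the adipocyte markers 1 of 3 was higher in GRLKO at this time. Without GRLKO replicate 1, which stands apart by Kupffer and myeloid markers, Slc43a1 was called at -0.92 (adjusted p = 0.0476), and the part of these markers was not tested.

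At ZT0 and ZT4 under CR edgeR called 0 of 8 members, beside 0.502% and 0.69% of genes. At unadjusted p under 0.05 there were 3 members at ZT0 and 1 at ZT4, beside 13.2% and 14.6% of all genes. DESeq2 called 2 at ZT0 (Slc38a2 at -0.56 and Slc16a10 at -0.44) and 0 at ZT4, beside 1.57% and 1.61% of 27654 genes. Slc38a2 was lower in 3 of 3 GRLKO libraries than in any WT library at both times. The WT libraries held 61.4 to 102 CPM at ZT0 and 123 to 143 CPM at ZT4, the GRLKO libraries 54.4 to 58.8 and 65.8 to 115 CPM. Without GRLKO replicate 2, or without WT replicate 2, both high in erythrocyte markers, edgeR called 0 members at ZT0, and 10 or 11 genes in place of 61. At ZT4, 1 of 3 adipocyte markers was higher in GRLKO.

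The call also depended on which libraries entered the fit. In 1 edgeR fit of all CR libraries, Slc38a3 at ZT12 and Slc7a2 at ZT16 were called higher in GRLKO (adjusted p = 0.0179 and 0.0144). The same fit called Slc38a2 at ZT8 (0.0096) and ZT20 (0.0445), Slc16a10 at ZT12 (0.0296) and Slc25a47 at ZT20 (0.0445), each lower, and not Slc38a2 or Slc43a1 at ZT16 (0.129 and 0.114). At ZT8, ZT12, ZT16 and ZT20 that fit called 5.55%, 21.5%, 7.86% and 8.64% of 13041 genes. Without CR ZT12 WT replicate 3 it made the same calls except Slc25a47 at ZT20 (0.0517), beside 5.17%, 18%, 7.36% and 7.99% of 13296 genes. With no filter on low counts Slc38a2 was called at ZT8 (0.0458) and Slc25a47 at ZT20 (0.0451), beside 1.87% and 1.14% of genes.

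On the control diet edgeR called 0 of 8 members between genotypes at any of the 6 times, each fitted by itself. The shares of genes called were 0.536% at ZT0, 0.195% at ZT4, 1.43% at ZT8, 2.08% at ZT12, 1.98% at ZT16 and 0.42% at ZT20. At unadjusted p under 0.05 there were 0, 1, 3, 3, 3 and 1 members in the same order of times, beside 15.3%, 9.75%, 11.2%, 12.6%, 16.6% and 11.3% of all genes. DESeq2 called 0, 0, 1, 2, 3 and 1, beside 1.49%, 0.702%, 1.34%, 2.05%, 2.29% and 1.07% of 27654 genes. The DESeq2 calls were Slc38a2 at ZT8, Slc38a2 and Slc43a1 at ZT12, these with Slc38a3 at ZT16, and Slc38a4 at ZT20.

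The large neutral carrier Slc43a1 measured 13.8, 9.85, 9.75 and 22.0 CPM in WT and 3.52, 3.0, 7.97 and 4.24 CPM in GRLKO at ZT12 on the control diet. The groups did not overlap, and WT replicate 4 was the highest. The log2 fold change of -1.58 (SE 0.36) missed the threshold (adjusted p = 0.0656) and passed without GRLKO replicate 3 (-1.96, adjusted p = 0.0283). The system A carrier Slc38a2 measured 151, 198, 198 and 255 CPM in WT and 152, 103, 66.7 and 80.2 CPM in GRLKO at that time. GRLKO replicate 1 overlapped the WT range, the log2 fold change was -1.0 (SE 0.25, adjusted p = 0.089), and without that library it was -1.28 (adjusted p = 0.0276). Of the hepatocyte markers, 4 of 7 were lower in GRLKO here (summed mean 90802.7 CPM in WT and 77470.7 in GRLKO), and 1 of 4 adipocyte markers tested was higher. GRLKO replicate 3, which decides the Slc43a1 call, held 104 CPM of the 8 adipocyte markers, with Cidec the most abundant. The part of these markers was not tested.

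In 1 fit of all control-diet libraries, edgeR called Slc38a2 (adjusted p = 0.00193) and Slc43a1 (0.00223) lower at ZT12 in GRLKO, beside 4.18% of genes. It called Slc38a3 higher at ZT16 in GRLKO (0.63, adjusted p = 0.0332), beside 3.65% of genes. Without control-diet ZT16 WT replicate 2 it called the first pair, beside 4.22% of genes. Slc38a3 then missed the threshold (0.67, adjusted p = 0.0557), beside 2.03% of genes called at ZT16. At other times on the control diet, leaving out 1 library brought in 1 member each. Slc38a2 was called at ZT8 without WT replicate 4 (-0.60, adjusted p = 0.0319) and at ZT16 without WT replicate 1 (-0.89, adjusted p = 0.031). Slc38a4 was called higher in GRLKO at ZT20 without WT replicate 3 (0.79, adjusted p = 0.0314); at that time 1 of 4 adipocyte markers was higher in GRLKO. Without the library with pancreas markers at ZT16, 0 members were called, with log2 fold changes of -0.68 (adjusted p = 0.228) for Slc38a2 and -1.07 (adjusted p = 0.125) for Slc43a1, and 93 genes passed in place of 232.

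The summed marker lists of the genotypes lay apart in several of these comparisons. Hepatocyte sums were lower in GRLKO under CR at ZT0 (115728.8 to 119199.4 CPM in WT, 101849 to 110138.2 in GRLKO), ZT8 (116695.6 to 143531.4, 111102.7 to 114487.8), ZT12 (169804.1 to 177234.5, 120118.5 to 136039.2) and ZT16 (135943.8 to 143240.7, 103445.7 to 130899.8), and on the control diet at ZT4 (94547 to 96065.8, 72152 to 80073) and ZT16 (86929.1 to 96578.9, 71421.5 to 84418.6). Endothelial sums were higher in GRLKO under CR at ZT4 (153 to 177, 203 to 239), ZT8 (154 to 165, 191 to 206) and ZT12 (149 to 180, 199 to 222), and lower on the control diet at ZT16 (105 to 109, 79.6 to 103).

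Adipocyte sums were higher in GRLKO under CR at ZT0 (13.0 to 13.6 CPM in WT, 18.5 to 33.6 in GRLKO) and ZT16 (10.4 to 12.2, 16.9 to 24.0), and on the control diet at ZT0 (13.7 to 28.3, 45.6 to 78.0), ZT4 (14.7 to 19.0, 20.7 to 53.1), ZT8 (13.6 to 27.1, 30.4 to 77.6) and ZT20 (16.2 to 23.0, 30.3 to 67.8). Kupffer and myeloid sums were higher at CR ZT12 (53.6 to 87.8, 118 to 181). Cholangiocyte sums were higher at CR ZT12 (26.4 to 31.2, 31.5 to 32.5) and lower at control-diet ZT4 (39.4 to 46.1, 28.3 to 36). Lymphocyte and neutrophil sums were higher at CR ZT0 and ZT16, at most 6.69 CPM there. The other sums overlapped, and the part of these shifts in the members' results was not tested.

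Whether the genotype effect differed between the diets at ZT12 was tested as an interaction. edgeR called 0 of 8 members, beside 1.01% of genes. At unadjusted p under 0.05 there was 1 member, Slc7a2, beside 14.2% of genes. DESeq2 called 0, beside 1.73% of 27654 genes. Without CR ZT12 WT replicate 3 the edgeR count was also 0. The interaction of Slc7a2 was 0.56 on the log2 scale (SE 0.23, adjusted p = 0.301), that of Slc38a2 was a fold of 1.02 (adjusted p = 0.985) and that of Slc43a1 a fold of 0.55 (adjusted p = 0.479). Calls made under CR at ZT12 and missed on the control diet are therefore not shown to differ, and the other times were not tested for an interaction. Each genotype comparison lies within 1 diet and 1 batch, while the interaction compares across them.

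**Figure D2:**
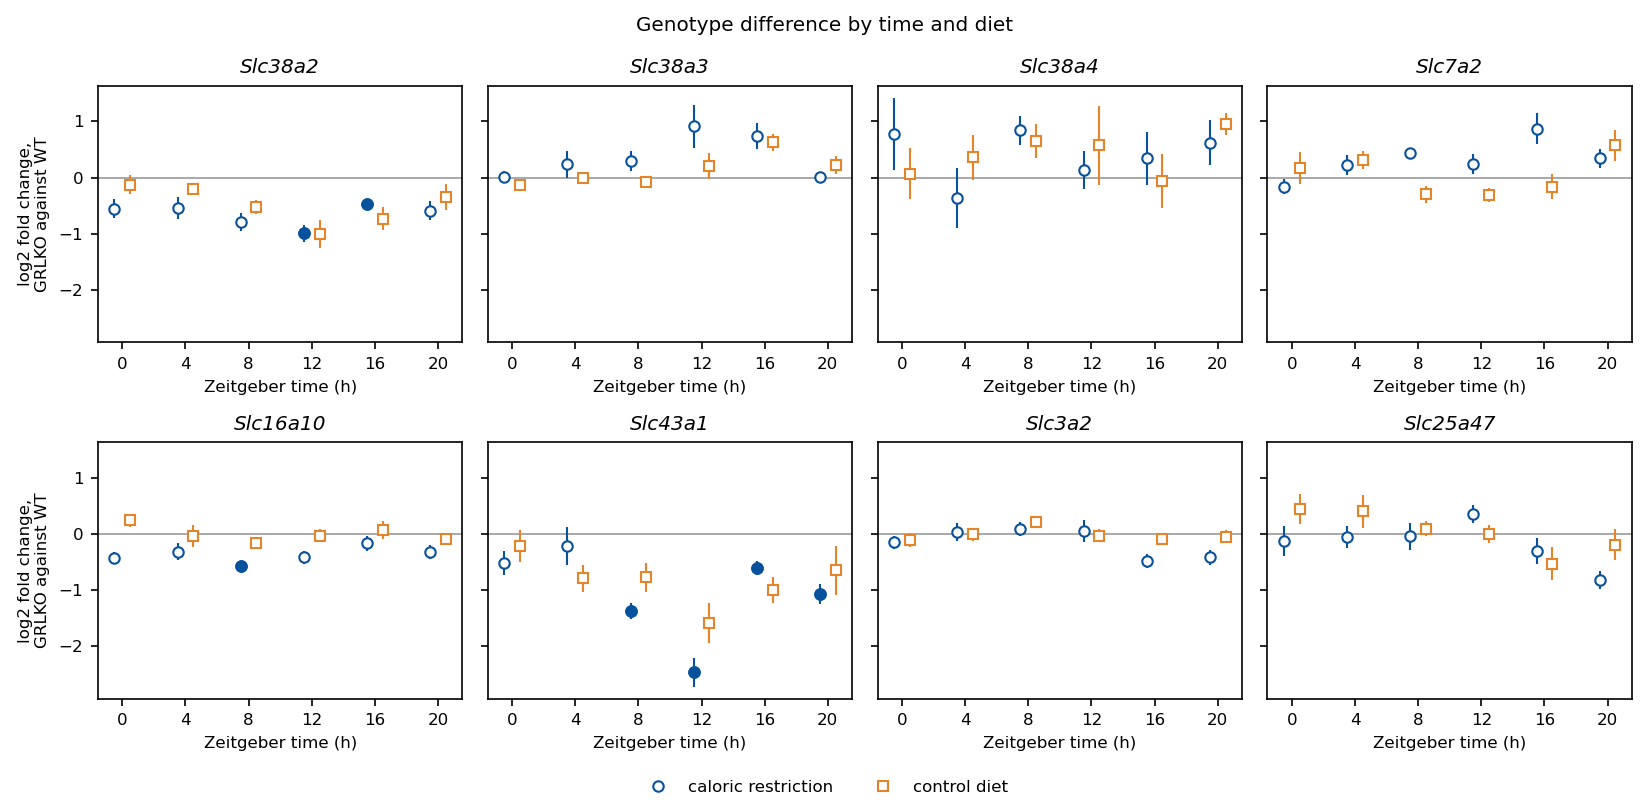
Log2 fold change of GRLKO against WT for each member (vertical axis) by zeitgeber time in hours (horizontal axis), under caloric restriction (circles) and on the control diet (squares); bars are standard errors from edgeR, and filled symbols passed the test. Slc43a1 reaches -2.46 at ZT12 under caloric restriction and -1.58 on the control diet, and the filled symbols are those of Slc38a2, Slc16a10 and Slc43a1 under caloric restriction.

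Over the day, 7 of 8 members had their highest WT mean at ZT8 or ZT12 under CR, late in the light phase, and Slc3a2 at ZT16. In that group the mean of Slc38a2 was 82.4 ± 20.3 CPM at ZT0, 136 ± 11.2 at ZT4, 183 ± 27.3 at ZT8, 330 ± 34.9 at ZT12, 68.0 ± 2.70 at ZT16 and 81.8 ± 20 at ZT20 (SD, n = 3). The libraries of ZT12, ZT8 and ZT4 lay apart from each other and above the rest, while those of ZT0, ZT20 and ZT16 overlapped. The highest mean was 4.85 times the lowest. In GRLKO under CR the order of the times was the same, from 167 ± 28.9 CPM at ZT12 to 49.2 ± 4.31 CPM at ZT16, a ratio of 3.39. Marker sums moved over the day as well. In WT under CR, hepatocyte sums were 169804.1 to 177234.5 CPM at ZT12 and at most 144414.5 at the other times. Kupffer and myeloid sums there were 53.6 to 87.8 CPM at ZT12 and at least 114 otherwise. Cholangiocyte sums there were 26.4 to 31.2 CPM at ZT12 and at least 33.3 otherwise, and neutrophil sums at most 0.0565 and at least 0.213. In GRLKO under CR, cholangiocyte sums were 31.5 to 32.5 CPM at ZT12 and at least 34.8 otherwise. Not every list and group is given here. In WT on the control diet, endothelial sums were 72.8 to 86.9 CPM at ZT12 and at least 105 otherwise. Stellate sums there were 86.5 to 129 and at least 141. The part of these shifts in the members' daily pattern was not tested.

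The cationic carrier Slc7a2 had the widest daily ratio of the 8 members in WT under CR, from 1642.6 ± 374 CPM at ZT12 down to 229 ± 38.4 CPM at ZT16 (SD, n = 3), a ratio of 7.17. All 6 time points lay apart from their neighbours in the order ZT12, ZT8, ZT4, ZT0, ZT20 and ZT16. In GRLKO under CR it went from 1948.3 ± 275 CPM at ZT12 to 417 ± 178 CPM at ZT16. On the control diet the highest mean was 1192.9 ± 135 CPM in WT and 967 ± 160 CPM in GRLKO, both at ZT12 (SD, n = 4).

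The system N carrier Slc38a3 was highest at ZT8 in WT, with 374 ± 103 CPM under CR (SD, n = 3) and 418 ± 23.7 CPM on the control diet (SD, n = 4), and at ZT12 in GRLKO, with 647 ± 322 (n = 3) and 459 ± 118 CPM (n = 4). In each of the 4 groups the libraries of ZT8 and ZT12 overlapped. Slc25a47, the mitochondrial carrier, was highest at ZT12 under CR (599 ± 94.4 CPM in WT and 772 ± 135 in GRLKO, n = 3) and at ZT8 on the control diet (446 ± 83.7 and 476 ± 58.0, n = 4). Its lowest means were 195 CPM at ZT16 in WT and 121 CPM at ZT20 in GRLKO under CR, and 87.8 and 119 CPM at ZT0 on the control diet.

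Slc16a10 peaked at ZT12 in all 4 groups. Under CR its means at ZT12 were 208 ± 7.50 CPM in WT and 157 ± 25.4 CPM in GRLKO (SD, n = 3), and on the control diet 116 ± 18.7 and 114 ± 9.70 CPM (SD, n = 4). Under CR the ZT12 libraries lay above those of every other time in both genotypes, and on the control diet they overlapped the next time.

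The large neutral carrier Slc43a1 had its highest WT mean at ZT12 under both diets, 15.4 ± 2.83 CPM under CR (n = 3) and 13.8 ± 5.75 CPM on the control diet (n = 4). In GRLKO the ZT12 mean was the lowest of the day under CR, at 2.81 ± 0.944 CPM, and the highest was 8.88 ± 0.857 CPM at ZT16. On the control diet the GRLKO means stayed between 3.67 and 4.98 CPM, with overlapping neighbours throughout. The heavy chain Slc3a2 was highest at ZT16 in WT, with 31.9 ± 1.98 CPM under CR (n = 3) and 33.7 ± 1.43 CPM on the control diet (n = 4). Slc38a4 varied widely among libraries at most times, with SDs of up to 80.4 CPM beside a mean of 99.0 CPM in GRLKO on the control diet at ZT12.

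**Figure D3:**
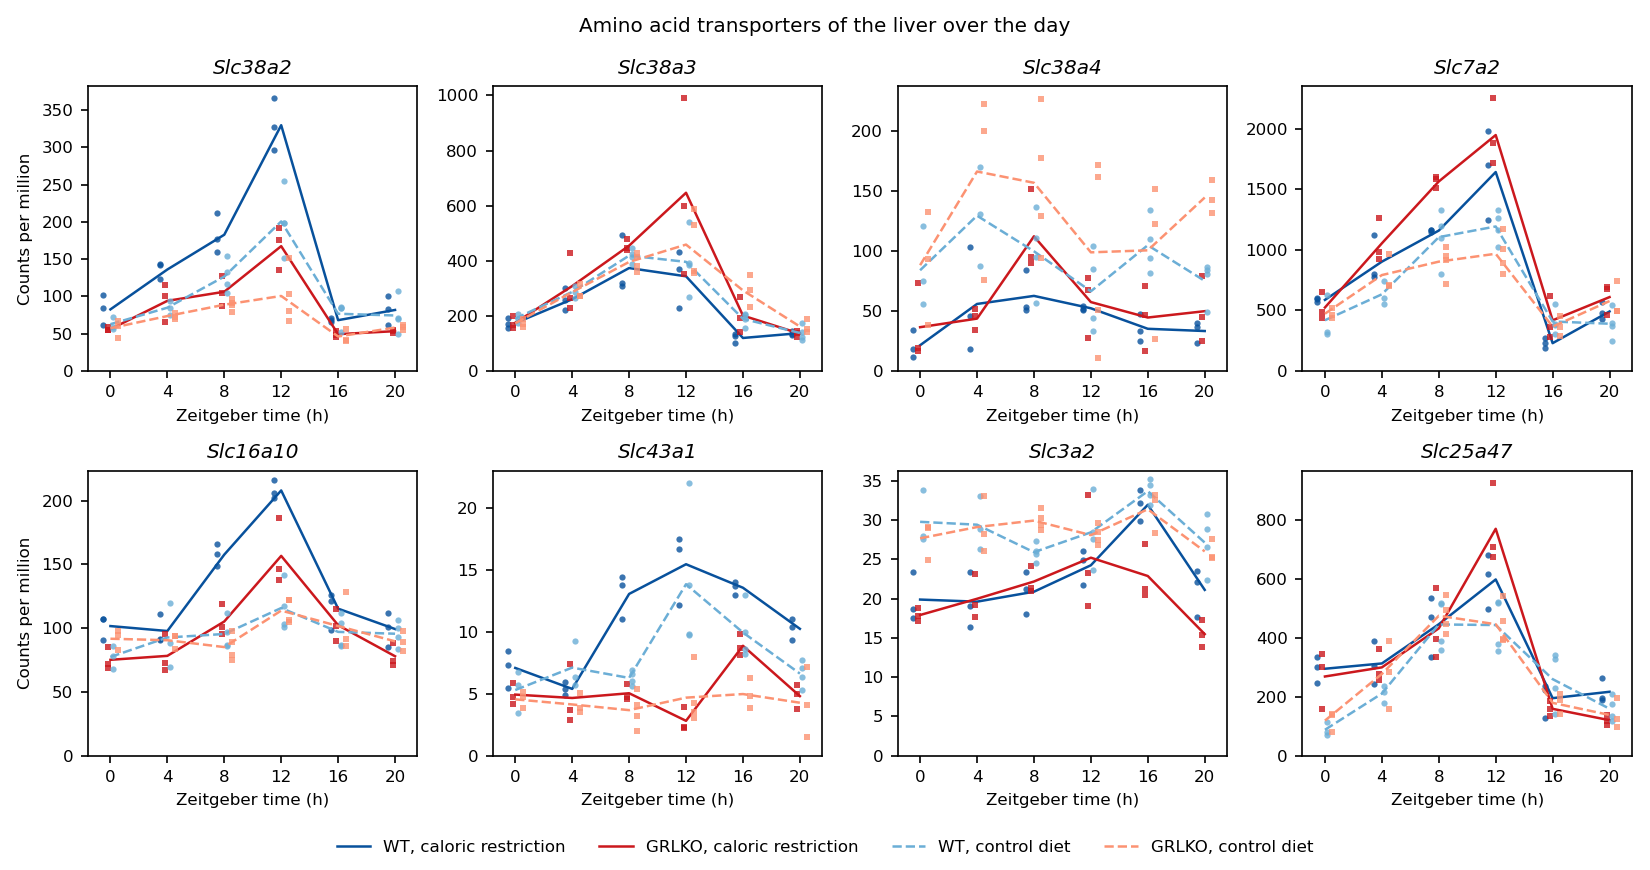
Levels in CPM (vertical axes, each starting at 0) of the 8 members against zeitgeber time in hours; points are libraries, lines join group means, and colours mark genotype and diet, with 3 or 4 libraries per group and time. Slc38a2 climbs to 330 CPM at ZT12 in WT under caloric restriction and to 167 CPM in GRLKO, and the Slc43a1 maximum of WT at ZT12 stands over a GRLKO mean of 2.81 CPM.

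Across the diets of the time series, the WT mean of Slc3a2 was lower under CR at each of the 6 times, at 19.6 to 31.9 CPM beside 25.9 to 33.7 CPM on the control diet. The WT means of Slc38a4 were 21.3 to 62.6 CPM under CR and 66.4 to 130 CPM on the control diet. In the diet experiment both genes were higher under CR. The time series tables were normalized separately, and the difference in mean level over the 6 times was not tested.

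A 24 h rhythm was tested with JTK_CYCLE on variance-stabilized values, calling an adjusted p under 0.05 with an amplitude over 0.1. All genes with any count in the group were tested, 18651 to 18932 per group, without the filter on low counts that the members pass. Shares among genes past that filter are not given here. In WT under CR 7 of 8 members were rhythmic, beside 21.6% of genes; Slc38a4 was not called (adjusted p = 0.107). In GRLKO under CR 3 were called, Slc38a3, Slc16a10 and Slc25a47, beside 19.7% of genes. In WT on the control diet 5 were called, Slc38a2, Slc38a3, Slc7a2, Slc43a1 and Slc25a47, beside 26.6% of genes, and in GRLKO on that diet 3, Slc38a2, Slc38a3 and Slc25a47, beside 22.3%.

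The median amplitude of the members was 0.636 in WT and 0.661 in GRLKO under CR, beside 0.15 and 0.143 for all genes tested, those with few counts included. With the control diet it was 0.531 and 0.388, beside 0.105 and 0.108. A limma test of a fitted cosine called more genes in each group, 6335 in place of 3737 in GRLKO under CR. It called 6 members there, adding Slc38a2, Slc7a2 and Slc3a2. In WT under CR it added Slc38a4 (limma adjusted p = 0.0378). On the control diet it added Slc16a10 in WT (0.0494) and Slc7a2 in GRLKO (0.00305). Slc43a1 had an adjusted p of 1 by JTK_CYCLE and 0.437 by limma in GRLKO under CR, and 0.00722 and 3.75e-05 in WT.

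Some rhythm calls rested on few libraries. Without CR ZT12 WT replicate 3, which holds pancreas markers, 6 members were rhythmic in WT under CR, since Slc3a2 missed the threshold (adjusted p = 0.0997). Without control-diet ZT16 WT replicate 2, 5 members were rhythmic in WT on that diet. Of the libraries high in other markers, leaving out CR ZT0 WT replicate 2 left 5 members rhythmic in WT under CR, without Slc7a2 and Slc25a47 (adjusted p = 0.0601 for both), and leaving out CR ZT16 WT replicate 1 left 5, without Slc3a2 (0.126) and Slc25a47 (0.0771). In GRLKO the same 3 members were called under CR without ZT0 replicate 2 or without ZT20 replicate 1, and the same 3 on the control diet without ZT12 replicate 3 or without ZT8 replicate 3; without ZT20 replicate 1 Slc7a2 joined them (0.0376). Leaving out all libraries of 1 replicate number brought the counts as low as 0 and 0 under CR (WT, then GRLKO) and 2 and 1 on the control diet, with fewer libraries per time. Shares of all genes called in these left-out rhythm tests are not given here. The counts are therefore not shown to be particular to the members.

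The rhythms themselves were compared with a limma test of the fitted cosine terms. Between genotypes 0 of 8 members differed under CR (beside 0.659% of genes) and 0 on the control diet (beside 0.366%). At unadjusted p under 0.05 there were 2 under CR (Slc43a1 and Slc3a2), beside 12.1% of genes, and 3 on the control diet (Slc38a2, Slc38a3 and Slc43a1), beside 9.83%; no second tool was run. The rhythm of Slc43a1 under CR came nearest, with an adjusted p of 0.127. A rhythm called in WT and missed in GRLKO is therefore not shown to differ.

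Between diets in WT, 2 of 8 members had a different rhythm, Slc16a10 (adjusted p = 0.0308) and Slc25a47 (adjusted p = 0.0293), beside 26.6% of genes. Slc16a10 had an amplitude of 0.51 under CR and 0.20 on the control diet; Slc25a47 had 0.64 and 1.08, with a fitted peak at ZT 8.58 and 10.8. The fitted peak of Slc25a47 is thus earlier under CR, while its highest group mean is later there, at ZT12 beside ZT8; on the control diet ZT8 and ZT12 had 446 and 444 CPM. Diet and library batch cannot be told apart here. Without CR ZT12 WT replicate 3 Slc16a10 missed the threshold (adjusted p = 0.0553) and Slc25a47 passed (adjusted p = 0.0177). Without control-diet ZT16 WT replicate 2 both passed, with adjusted p of 0.0294 and 0.0392, as they did without CR ZT0 WT replicate 2 (0.0206 and 0.044) or CR ZT16 WT replicate 1 (0.0333 and 0.0434). With all libraries of 1 replicate number left out, the adjusted p of Slc16a10 was 0.052 to 0.239. Slc25a47 missed the threshold without replicate number 1, 2 or 3 (0.109, 0.148 and 0.109).

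The members did not vary as 1 group across libraries. Over the 36 CR libraries, which share diet and batch and span 6 times and 2 genotypes, Slc38a3 and Slc7a2 had a Pearson r of 0.82 in log2 CPM, and over the 42 control-diet libraries 0.76. Slc38a2 and Slc16a10 had 0.79 and 0.33, and Slc43a1 and Slc7a2 had -0.31 and -0.01. These correlations hold the time of day and the genotype in them and are a description only.

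The genes most like each member over the same 36 CR libraries were sought among 8872 genes with a mean of at least 5 CPM. For Slc38a2 they were Plekha3 (r = 0.941, Spearman rho = 0.932) and Tsc22d2 (0.931, 0.922), for Slc38a3 Sin3b (0.911, 0.914) and Mcoln1 (0.911, 0.910), and for Slc7a2 Slc25a16 (0.924, 0.932) and Tollip (0.919, 0.915). The list goes on with Man2a1 (0.897, 0.810) for Slc16a10, and Mylk (0.842, 0.806) and Tango2 (0.836, 0.891) for Slc43a1. Bri3 (0.912, 0.909) and Sirt3 (0.909, 0.916) were most like Slc25a47, and Gna11 (0.798, 0.731) and Ddit3 (0.755, 0.643) most like Slc3a2. Slc38a4 had the weakest likeness, to Ipo5 (0.652, 0.685) and Ankrd12 (0.650, 0.656).

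Other amino acid transporters were read from lists of 34 plasma membrane, 7 lysosomal and 11 mitochondrial carriers; 51 of the 52 were in the tables, and Slc25a2 is not analysed here. In the diet experiment 11 of 34 tested rose and 4 fell, beside 47.1% of all genes called. Slc1a5, a carrier of glutamine and other neutral amino acids, rose by a log2 fold change of 1.81, Slc3a1, the heavy chain of the basic amino acid and cystine carrier, by 1.16, and the mitochondrial glutamate carrier Slc25a22 by 1.04. Slc36a1, a lysosomal proton-coupled carrier, fell by 1.24, Slc25a45 by 1.16 and Slc38a10 by 0.29. In the WT libraries of the time series Slc1a5, Slc3a1 and Slc25a22 missed the threshold, at 0.82, 0.41 and 0.42 (adjusted p = 0.116, 0.159 and 0.0833), and did so too without CR ZT12 WT replicate 3 (0.0631, 0.505 and 0.182). With corticosterone 4 of 29 rose, among them Slc3a1 at 1.14, Slc25a22 at 0.87 and the mitochondrial ornithine carrier Slc25a15 at 0.83, and 2 fell, Slc1a4 by 1.88 and Slc36a1 by 0.62, beside 8.11% of all genes called. Without control replicate 2 Slc25a22, Slc1a4 and Slc36a1 missed the threshold (adjusted p = 0.0752, 0.0798 and 0.0702), as did Slc25a22 and Slc1a4 without control replicate 3 (0.0564 and 0.0574), and Slc1a4 and Slc36a1 without treated replicate 3 (0.0599 and 0.0546).

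Slc3a1 stands beside Slc3a2 as the other heavy chain, and it was lower in GRLKO than in WT at each CR time point, with log2 fold changes of -1.94 at ZT0, -1.92 at ZT4, -2.40 at ZT8, -2.21 at ZT12, -2.83 at ZT16 and -2.48 at ZT20. With the control diet it was called from ZT0 to ZT16, at -2.14, -2.14, -1.36, -2.11 and -1.89. Adipocyte markers were higher in GRLKO on that diet, 1 of 4 at ZT0, 1 of 4 at ZT4, 2 of 4 at ZT8, 1 of 4 at ZT12 and 1 of 4 at ZT20 (summed means at ZT0, ZT4 and ZT8 of 20.3, 17.1 and 19.1 CPM in WT and 61.1, 38.5 and 50.4 CPM in GRLKO), as was 1 of 5 erythrocyte markers at ZT0 and at ZT16. The sums of marker lists that lay apart at each time are given above with the genotype comparisons. The part of these markers was not tested. Single libraries ended its calls at the early times: at CR ZT0 any 1 library other than GRLKO replicate 1 (adjusted p = 0.0748 to 0.13), at CR ZT4 WT replicate 1 or 2 or GRLKO replicate 2 (0.067, 0.0807 and 0.142), and at control-diet ZT0 any 1 library other than WT replicate 3 (0.0842 to 0.198). At control-diet ZT4 it was so without any 1 WT library or GRLKO replicate 1 (0.0632 to 0.0787). In the diet experiment its adjusted p was 0.0549 without control replicate 2, and in the corticosterone experiment 0.0642 and 0.0771 without control replicate 1 or 2.

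At CR ZT12, 1 of 32 other transporters was higher in GRLKO, the taurine carrier Slc6a6 at 0.94, and 7 were lower, among them the glutamate carrier Slc1a2 at -1.15 and Slc25a15 at -0.68, beside 15.3% of all genes called. Without WT replicate 3 these 3 passed as well (adjusted p = 0.0379, 0.0423 and 0.0466). At the other CR times 1 to 3 were called, each lower in GRLKO, beside 0.502% to 4.54% of all genes, including Slc1a5 at -1.50 at ZT8, and the branched-chain amino acid carrier of mitochondria, Slc25a44, at -0.75 and Slc25a12 at -0.43 at ZT16. Slc25a12 missed the threshold without any 1 library (adjusted p = 0.0709 to 0.15), and Slc1a5 without WT replicate 3 or any 1 GRLKO library (0.0582 to 0.0862). For the control diet up to 2 per time point were called, each lower, beside 0.195% to 2.08% of all genes, with Slc1a2 at -0.62 at ZT8, which missed the threshold without any 1 library other than WT replicate 4 (0.072 to 0.104).

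By position in the mm10 assembly, 2 system A genes are neighbours in the same orientation on chromosome 15: Slc38a2 (ENSMUSG00000022462, 96687392 to 96699730, minus strand) and Slc38a4 (ENSMUSG00000022464, 96994820 to 97055956, minus strand). The others lie apart. Slc38a3 (ENSMUSG00000010064) is on chromosome 9 from 107650634 to 107669530, Slc7a2 (ENSMUSG00000031596) on 8 from 40862396 to 40922308, and Slc16a10 (ENSMUSG00000019838) on 10 from 40033532 to 40142258. Slc43a1 (ENSMUSG00000027075) is on chromosome 2 from 84838850 to 84863594, Slc3a2 (ENSMUSG00000010095) on 19 from 8706882 to 8723369, and Slc25a47 (ENSMUSG00000048856) on 12 from 108836046 to 108856815. Exons of Slc7a2 share 635 bases with the antisense lincRNA Gm26584. The labels name a TruSeq RNA kit for all 90 libraries and the study's methods a stranded mRNA kit as well; whether the counts separate reads of that stretch by strand is not given in the sources used here.

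Promoter sequences, credited to RefSeq on GRCm38.p6, were at hand for 6 of the 8 members, as 8 windows of 300 bases; Slc38a3 and Slc7a2 had none. Each was searched on both strands for the GR monomer site TGTTCT, the GR inverted repeat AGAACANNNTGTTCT (which holds that site), the E-box CACGTG and the C/EBP-ATF composite TGATGNAAT. Among 32851 promoters of the same length, these letters occur in 19%, 0.00913%, 7.15% and 0.965%. A monomer site was found in 1 of the 3 Slc38a4 windows and an E-box in the window of Slc43a1, and none of the 4 motifs in the windows of Slc38a2, Slc16a10, Slc3a2 and Slc25a47.

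The windows of the 2 members with the most genotype calls under CR are shown 5′ to 3′ on the strand of the gene, Slc43a1 from chr2:84840073-84840372 (plus strand) with its E-box in capitals, and Slc38a2 from chr15:96699679-96699978 (minus strand), where no motif was found. A match is a description of letters, and its absence says only that they are not in this window.
Slc43a1: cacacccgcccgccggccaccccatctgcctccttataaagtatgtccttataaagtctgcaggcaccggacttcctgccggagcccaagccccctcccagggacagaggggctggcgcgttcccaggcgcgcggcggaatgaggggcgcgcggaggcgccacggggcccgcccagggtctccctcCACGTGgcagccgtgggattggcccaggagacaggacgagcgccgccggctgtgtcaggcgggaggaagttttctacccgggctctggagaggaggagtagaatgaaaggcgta
Slc38a2: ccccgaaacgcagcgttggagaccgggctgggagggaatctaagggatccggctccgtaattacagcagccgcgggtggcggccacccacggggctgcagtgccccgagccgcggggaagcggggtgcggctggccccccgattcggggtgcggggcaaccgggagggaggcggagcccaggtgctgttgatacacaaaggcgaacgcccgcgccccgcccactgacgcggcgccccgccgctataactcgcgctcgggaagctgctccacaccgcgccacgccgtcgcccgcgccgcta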

How the data were processed

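The deposited tables hold estimated counts per gene, which the authors made with Salmon 1.8.0 after FastQC 0.11.9 and summed to genes with tximport 1.18.0. The labels name mm10, and a table of 6 columns of variance-stabilized values was not used. The members and lists were chosen with earlier results of these data known.

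Counts were rounded and tested in R 4.3.3 with edgeR 4.0.16 (TMM, filterByExpr with a minimum count of 10, quasi-likelihood test, Benjamini-Hochberg adjusted p under 0.05 across all genes tested), on the 2 groups compared. Each p given for a comparison of levels is an edgeR adjusted p unless DESeq2 1.42.0, run as an alternative, is named. Shares of genes called by DESeq2 are of all 27654 genes, also those without counts. Shares called by edgeR are of the genes past the filter, so a share of one is not comparable with a share of the other. SE is the size of the log2 fold change over the square root of F. Rhythms were tested with JTK_CYCLE (24 h, 6 phases, amplitude over 0.1) written in Python 3.11.15 on DESeq2 variance-stabilized values, and compared with limma 3.58.1; p-values of rhythms are adjusted p from these. The test procedures were checked on simulated data. Recovery by JTK_CYCLE was required there only for a peak at 1 of the 6 tested phases. Its power is known to be lower between phases, so a missed call does not show that a rhythm is absent. Figures were drawn with matplotlib 3.10.9.

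Identifiers were matched to symbols for 27244 of 27654 genes; the other 410 hold 0.107% of counts. Among 102 pairs of libraries of a group, no pair was a copy (lowest chi-square per degree of freedom 10.94). Genes named beyond the members are Nr3c1, up to 3 other transporters in each direction and comparison with a mean of at least 5 CPM in 1 group, ordered by log2 fold change among those called, and the 2 genes most correlated with each member, of which 1 is not reported here. Alternatives were DESeq2, its size factors in edgeR, no filter, 1 fit of all libraries of a diet, a replicate block, each library left out, log2 CPM (prior count 2), no amplitude threshold, a limma cosine test, and the time series in place of the diet experiment. Leaving out libraries that stand apart by markers in the rhythm tests, and those with pancreas markers in the single fits and the time series diet contrast, was chosen after seeing the data.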

Additional observations from a re-analysis of the deposited data

Results flagged for a closer look

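In groups of 4 libraries, 1 library was tested for standing far from the other 3, over 54 groups of members and Nr3c1. Chance gives about 1 in 20 such groups, and 2 were found. Slc38a2 measured 52.2 CPM in control-diet ZT16 WT replicate 1, below the other libraries at 83.7 to 86.2 CPM. Slc38a4 measured 49.1 CPM in control-diet ZT20 WT replicate 3, below the others at 80.5 to 86.9 CPM.

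The rhythms of Slc16a10 (limma adjusted p = 0.0308) and Slc25a47 (adjusted p = 0.0293) differed between the diets in WT, 2 of 8 members beside 26.6% of all genes. Diet and library batch cannot be told apart in this test. Slc16a10 missed the threshold without CR ZT12 WT replicate 3 (adjusted p = 0.0553) and with all libraries of any 1 replicate number left out (0.052 to 0.239). Slc25a47 passed without that library (0.0177) and missed the threshold with all libraries of replicate number 1, 2 or 3 left out (0.109, 0.148 and 0.109).

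Slc3a2 differed in direction between genotype comparisons: at ZT8 on the control diet each GRLKO library lay above each WT library (log2 fold change 0.21), while at ZT16 and ZT20 under CR each GRLKO library lay below each WT library (-0.48 and -0.42). None of the 3 passed the edgeR test, and the difference between them was not tested.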

How the results depend on the processing

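Members called per comparison changed with these settings, and the cause was not tested. DESeq2 called 2 at CR ZT0, 5 at CR ZT8, 4 at CR ZT16 and 3 at CR ZT20, and on the control diet 1 at ZT8, 2 at ZT12, 3 at ZT16 and 1 at ZT20. A single fit of all libraries of a diet called 4 at CR ZT12, 1 at CR ZT16 and 3 at CR ZT20, and on the control diet 2 at ZT12 and 1 at ZT16. Without the library with pancreas markers it called 4, 1 and 2, and 2 and 0. Without the filter, 2 were called at CR ZT20. The time series in place of the diet experiment called 2 and turned the sign of Slc38a4 (-0.37), Slc3a2 (-0.26) and Nr3c1 (0.25, adjusted p = 0.0328); without CR ZT12 WT replicate 3 it also called 2, with Slc38a4 at -0.40 and Slc3a2 at -0.28. The limma cosine test called 6 in GRLKO under CR. With the replicate number as a block, 1 was called at CR ZT8, 0 at CR ZT16 and 0 at CR ZT20. Libraries of the same number were not alike between the groups compared (r of -0.123 to 0.115). No pairing by number was seen in these values, which cannot exclude a shared day or cohort. DESeq2 size factors in edgeR, log2 CPM and no amplitude threshold moved no count of members by over 1.5 times.

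With 1 library left out, or all of 1 replicate number for rhythms, the lowest and highest counts were 5 and 7 for the diet, 2 and 5 for corticosterone, 2 and 3 at CR ZT12, 0 and 2 at CR ZT8 and CR ZT16, 0 and 1 at CR ZT20, and 0 and 1 on the control diet at ZT8, ZT12, ZT16 and ZT20. For rhythms they were 0 and 6 in WT and 0 and 3 in GRLKO under CR, 2 and 5 in WT and 1 and 4 in GRLKO on the control diet, and 0 and 2 for the rhythm difference between diets. Except where stated above, the shares of all genes called in these left-out fits are not given. The counts are therefore not shown to be particular to the members.

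Counts of all genes called by edgeR and DESeq2 were 935 and 1302 for corticosterone. Under CR by edgeR, DESeq2 and the single fit they were 61, 433 and 169 at ZT0, 83, 444 and 358 at ZT4, 308, 698 and 724 at ZT8, 1795, 2078 and 2805 at ZT12, 541, 917 and 1025 at ZT16 and 178, 687 and 1127 at ZT20. On the control diet they were 63, 411 and 630, 23, 194 and 48, 166, 371 and 36, 238, 567 and 537, 232, 632 and 469, and 50, 296 and 387 in the same order of times, and for the interaction 123 and 479 by edgeR and DESeq2. With the replicate block they were 534 for corticosterone, 9, 13, 151, 889, 287 and 76 under CR, 9, 1, 36, 101, 37 and 3 on the control diet and 38 for the interaction. Rhythmic genes by JTK_CYCLE and limma were 4026 and 6800 in WT and 3737 and 6335 in GRLKO under CR. The smallest difference that could be detected was not measured for any member.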
